A study of Homo sapiens with 6 samples.

Results

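PC3 is a human prostate cancer cell line that was derived from a bone metastasis. The data described here are the 4 PC3 libraries, of 6 in the series, that were made from untreated cells (control, 2 libraries) and from cells with 50 µM heme in their medium for 4 h (heme 4 h, 2 libraries). They were chosen by their labels, not by any measured value. All cells were grown in RPMI medium with serum and antibiotics, the controls received no treatment and the labels name no vehicle. Cells with 50 µM heme for 2 h (2 libraries) are set beside them as a second time point. Trizol was used for RNA extraction and a TruSeq kit for the libraries. Nothing in the labels says that replicates were grown apart, so the p-values here cover library-to-library spread that may be technical. A single cell line stands for the tumour here.

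Heme is the iron-containing ring of haemoglobin and cytochromes, and free heme is toxic. Cells degrade it with heme oxygenase 1, the product of HMOX1, and make it in a chain of steps that begins with aminolevulinate synthase 1, the product of ALAS1. Heme binds the repressor BACH1, which competes with the activator NRF2 (gene NFE2L2) for antioxidant response elements near HMOX1 and the glutathione gene GCLM, and heme also lowers ALAS1, its own synthesis enzyme. The series links heme, its plasma scavenger hemopexin (HPX) and folded G-rich DNA (G-quadruplexes) to the oncogene MYC, and the 4 h libraries answer which changes are seen later in the exposure.

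Gene counts were between 53129375 and 54536772 per library of these 4, and mitochondrially encoded genes (all symbols that start with MT-) took 2.33% to 2.73% of them. Reads outside annotated genes made up 6.27% and 6.29% of the control libraries. At 4 h the shares were 5.48% and 6.40%. Levels are gene counts scaled to a common library size (CPM, with TMM factors), given first for replicate 1 and then for replicate 2. CPM values are not divided by gene length, so they compare libraries and not genes. KRT8 and KRT18, keratins of luminal epithelium, stood at 596 and 582 CPM and at 479 and 444 CPM in the controls. KLK3 and FOLH1, defining markers of luminal prostate cells, had 0 counts in every library, so the cells carried part of the luminal list only. The luminal, basal and neuroendocrine, white blood cell, fibroblast and endothelial marker lists held 13, 10, 10, 9 and 7 genes. In the 4 libraries their sums ran from 1120 to 1190, 26.3 to 30.4, 49.2 to 53.9, 28.7 to 35.1 and 18.8 to 21.0 CPM. KRT8 and KRT18 made up most of the luminal sum in the controls, so that sum does not speak for the other luminal members. The red cell list of 10 genes summed to at most 0.130 CPM in the 4 libraries, where HBA1, HBA2 and HBB had 0 counts, and to 0.247 and 0.226 CPM at 2 h. Few members could be tested: 8 luminal, 6 basal and neuroendocrine, 3 each of the white blood cell, fibroblast and endothelial lists, and 0 red cell genes. None of those tested passed the threshold in edgeR or DESeq2, and 1, of the basal and neuroendocrine list, had an unadjusted p under 0.05. For some of them, CD14, ACTA2 and CDH5 included, DESeq2 gave no adjusted p, so these could not pass there.

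After 4 h of heme, 13 of 15606 genes tested differed from control by edgeR's quasi-likelihood test with a Benjamini-Hochberg adjusted p under 0.05, which is 0.0833%. The 5 that rose (0.0320% of genes tested) were HMOX1, ZNF469, GCLM, CYP1B1 and RUNX2. The 8 that fell (0.0513%) were ALAS1, RGS2, KRTAP2-3, ESM1, MALAT1, KRT34, KDM3A and ERRFI1. In each of the 13 the 2 heme libraries lay outside the range of the 2 controls, as they did for 34.4% of all genes tested. These genes lie on 9 chromosomes.

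**Figure D1:**
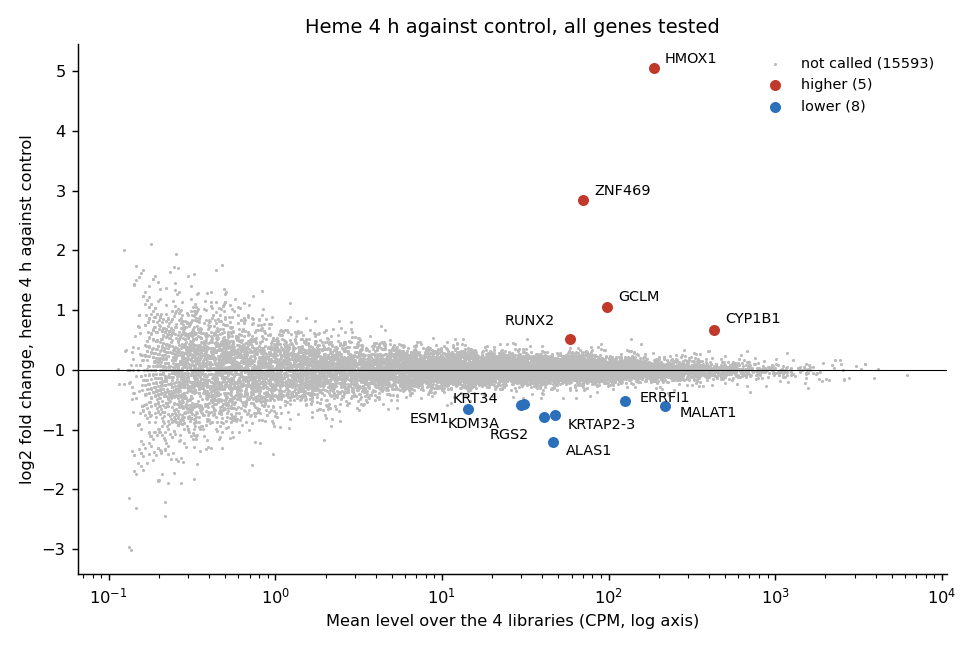
Each point is a gene, with its mean level over the 4 libraries in CPM on a log axis and its log2 fold change of heme 4 h against control. The 5 genes that rose (red) and the 8 that fell (blue) are named, HMOX1 stands highest at 5.05, and ALAS1 at -1.21 is the lowest of the 8, while genes at low levels scatter widely without passing the test.

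Most of the transcriptome lay near the control level. Of 11809 genes with a mean of at least 2 CPM, 11410 (96.6%) differed by less than 1.25-fold, 36 by at least 1.5-fold and 4 by at least 2-fold, the last being HMOX1, ZNF469, GCLM and ALAS1. The median standard error of a log2 fold change among them was 0.102, and the smallest change that passed the test was 0.51 (ERRFI1, a fall). The log2 differences between the 2 control replicates had a standard deviation of 0.153 over these genes, those between the 2 heme 4 h replicates 0.21, and those between the group means 0.149. Means of 2 libraries vary less than single libraries, so the last width is not on the same footing as the others. An unadjusted p under 0.05 was found for 949 genes (6.08%), 513 higher and 436 lower. Counts of list members with such a p, as given below, stand beside these.

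The count of 13 came from the fit with both 4 h libraries, and it was higher with either one left out. List members that passed with 1 of them left out, as given below, stand beside those higher counts over all genes. Some of them also passed with the replicate number as a block, a fit that kept all 4 libraries and passed 162 genes (1.04%). The labels do not show that replicate numbers pair cultures. Without heme 4 h replicate 1 the count was 490 (300 higher, 190 lower), and without replicate 2 it was 115 (38 higher, 77 lower). Each of these fits held all 13 genes, and the lone library was assumed to vary as the controls do. DESeq2 gave 29 genes (10 higher, 19 lower, 0.186% of genes tested), among them all 13, and 1 fit over all 6 libraries gave 5. For 5749 of the 15606 genes DESeq2 gave no adjusted p, so a gene that did not pass in DESeq2 may have had no verdict.

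**Figure D2:**
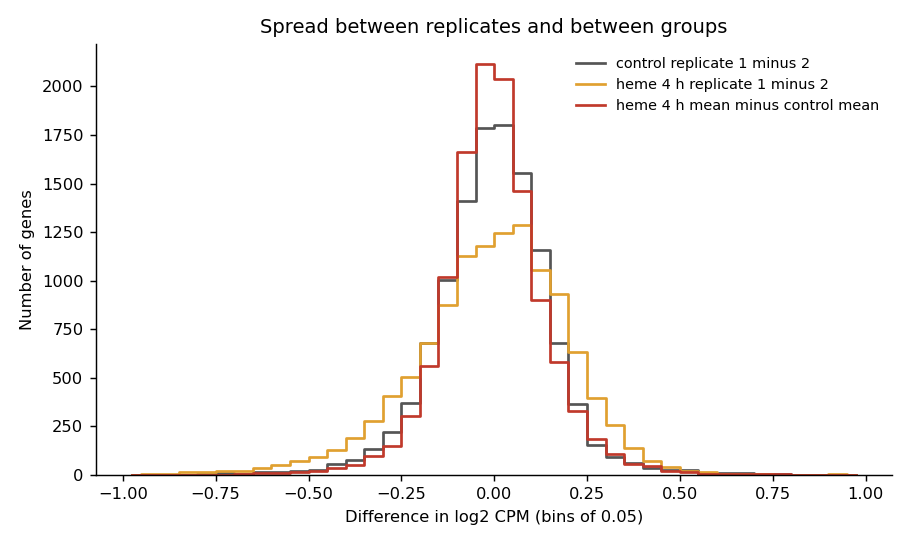
The histogram counts the 11809 genes with a mean of at least 2 CPM by their difference in log2 CPM, in bins of 0.05. The lines show control replicate 1 minus 2 (standard deviation 0.153), heme 4 h replicate 1 minus 2 (0.21) and the heme 4 h mean minus the control mean (0.149). The heme 4 h replicates give the widest line, and the line of means averages 2 libraries on each side.

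The promoters of GCLM, MALAT1 and ALAS1 are shown because they hold, or lack, the antioxidant response element TGACNNNGC that NRF2 and BACH1 bind with small MAF proteins. The 100 bases before the RefSeq start on GRCh38.p14 are printed 5′ to 3′ along the gene, with capitals marking a match on either strand.
GCLM (chr1:93909431-93909530, minus strand): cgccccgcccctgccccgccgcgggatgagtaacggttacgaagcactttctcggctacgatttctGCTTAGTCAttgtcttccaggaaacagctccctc
MALAT1 (chr11:65497638-65497737, plus strand): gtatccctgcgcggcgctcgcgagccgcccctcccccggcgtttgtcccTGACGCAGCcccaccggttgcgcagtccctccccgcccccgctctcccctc
ALAS1 (chr3:52197983-52198082, plus strand): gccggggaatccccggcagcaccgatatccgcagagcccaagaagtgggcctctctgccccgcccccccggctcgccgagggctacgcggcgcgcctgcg
The GCLM match lies 34 to 26 bases before the start on the opposite strand, and the MALAT1 match 51 to 43 bases before the start. The printed ALAS1 stretch has no match. MALAT1 has a further RefSeq start, whose window (chr11:65498795-65499094) held no TGACNNNGC. The printed MALAT1 stretch also spans 65497688, the start of the gene coordinates given below. A promoter window (250 bases before to 50 after the start) was matched for 10 of the 13 genes, the others being HMOX1, ZNF469 and CYP1B1.

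Over the whole windows and both strands, TGACNNNGC was found in 1 of 2 matched genes that rose (GCLM) and 1 of 8 that fell (MALAT1), against 19.3% of 11030 tested genes with a window. MALAT1 held a further match 231 to 223 bases before the RefSeq start of the printed stretch, on the opposite strand. TGACTCA, the AP-1 site, was found in RUNX2 and KDM3A and in 5.19% of all windows, and neither of those windows held TGACNNNGC. The dioxin response element core GCGTG was found in GCLM, RGS2, MALAT1, ESM1 and KDM3A, against 57.1% of all windows, and in the MALAT1 window that holds the printed stretch both matches overlap the upstream TGACNNNGC match. The potential G-quadruplex pattern (4 runs of at least 3 G with 1 to 7 bases between) was found in GCLM and MALAT1, against 40.8%. The ATF4 element TGATGCAA (0.762% of windows), the cAMP element TGACGTCA (3.55%) and the E-box CACGTG of MYC and MAX (12.2%) were found in none of the 10. A match describes letters in a window and is not a bound site.

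HMOX1 (chr22:35380361-35394214, GRCh38, as are all gene coordinates here), which opens the heme ring, stood at 10.4 and 11.4 CPM in the controls and at 382 and 341 CPM after 4 h. In bulk RNA, more RNA per cell and more cells with the RNA cannot be told apart. Both heme libraries lay far above both controls, and at 2 h the values were 451 and 328 CPM. The rise was 33.2-fold (95% interval 28.4 to 38.8, edgeR adjusted p = 1.2e-16), a log2 fold change of 5.05 with a standard error of 0.11. Tested directly, 4 h was not separable from 2 h (log2 difference -0.11, standard error 0.13, edgeR adjusted p = 0.566). That test passed for 4558 of 16209 genes (28.1%), 2270 higher at 4 h (14.0%) and 2288 lower (14.1%), and for 7 of the 13 genes.

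ALAS1 (chr3:52198086-52214327), the entry enzyme of heme synthesis, moved the other way. It stood at 63.8 and 66.6 CPM in the controls, 35.4 and 29.4 CPM at 2 h and 28.6 and 27.8 CPM at 4 h. Both 4 h libraries lay below the controls by more than the replicates differed, a 2.31-fold fall (log2 -1.21, standard error 0.10, edgeR adjusted p = 6.64e-07). The level at 4 h was not separable from that at 2 h (log2 difference -0.20, standard error 0.12, edgeR adjusted p = 0.222). ALAS1 was the single member past the threshold among 18 tested genes of heme synthesis, whose median log2 fold change was -0.07 and whose other members ran from -0.16 for SUCLA2 to 0.18 for FECH, the enzyme that inserts the iron.

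The rest of the heme breakdown and storage list did not pass the test. Of 14 tested members HMOX1 alone did, and 2 members had an unadjusted p under 0.05. FTH1, the heavy chain of the iron store ferritin, stood at 1040 and 1100 CPM in the controls and at 1270 and 1330 CPM at 4 h. The groups did not overlap, but with a log2 fold change of 0.28 (standard error 0.08) the edgeR adjusted p was 0.424. FTH1 was among the genes that passed with the replicate number as a block, and also without heme 4 h replicate 1. FTL, the ferritin light chain, had a log2 fold change of 0.12 (edgeR adjusted p = 0.931). The bilirubin-forming reductases BLVRA and BLVRB were each at -0.02.

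SLC48A1, which moves heme out of endosomes, stood at 24.5 and 29.6 CPM in the controls, 42.6 and 40.2 CPM at 2 h and 29.4 and 31.8 CPM at 4 h. The control and 4 h values overlapped (log2 fold change 0.18, edgeR adjusted p = 0.904), and 4 h was lower than 2 h by the direct test (-0.44, edgeR adjusted p = 0.0171). TFRC, the transferrin receptor for iron uptake, stood at 1210 and 1080 CPM in the controls and at 1040 and 967 CPM at 4 h (log2 fold change -0.19, edgeR adjusted p = 0.815). None of 10 tested genes of iron uptake and sensing passed in edgeR or DESeq2, with 2 at an unadjusted p under 0.05.

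Beside HMOX1, the antioxidant gene that passed was GCLM (chr1:93885205-93909456), the modifier subunit of the enzyme that starts glutathione synthesis. It stood at 64.2 and 63.8 CPM in the controls, 89.5 and 99.7 CPM at 2 h and 137 and 129 CPM at 4 h. The 3 groups did not overlap, and the level was higher at the later time. GCLM rose 2.08-fold over control by 4 h (log2 1.06, standard error 0.09, edgeR adjusted p = 1.12e-06), and 4 h exceeded 2 h by 0.49 on the log2 scale (edgeR adjusted p = 0.0022).

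Of 37 tested NRF2 targets, HMOX1 and GCLM passed the threshold and 30 had a log2 fold change above 0. An unadjusted p under 0.05 was found upward for 12 and downward for 0, beside 513 and 436 of 15606 genes tested. The list's median was 0.12, beside 0 over all genes tested. TRIM16 (0.45, edgeR adjusted p = 0.226), OSGIN1 (0.43, 0.259), TXNRD1, a thioredoxin reductase (0.31, 0.347), GCLC, the catalytic partner of GCLM (0.28, 0.683) and NQO1, a quinone reductase (0.27, 0.636) did not pass. With the replicate number as a block the count of 2 became 10, all higher, beside 1.04% of all genes tested. TRIM16, OSGIN1, TXNRD1, GCLC and NQO1 passed in that fit. Of these, TRIM16, OSGIN1 and TXNRD1 also passed both without heme 4 h replicate 1 and without replicate 2.

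The genes of the regulators BACH1 and NRF2 did not pass the test at 4 h against control. BACH1, the heme-sensing repressor, stood at 80.1 and 75.0 CPM in the controls, 74.7 and 94.7 CPM at 2 h and 66.5 and 60.6 CPM at 4 h. The 4 h libraries lay below the controls, with a log2 fold change of -0.29 and an edgeR adjusted p of 0.633, and below the 2 h level by the direct test (-0.42, edgeR adjusted p = 0.0177). BACH1 was lower than control past the threshold with the replicate number as a block, and also without heme 4 h replicate 1. NFE2L2, the gene of NRF2, had a log2 fold change of 0.02 (95% fold interval 0.896 to 1.16).

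ZNF469 (chr16:88427471-88440757), a zinc finger gene in which mutations cause a brittle cornea, stood at 17.4 and 17.1 CPM in the controls, 85.3 and 74.5 CPM at 2 h and 117 and 130 CPM at 4 h. The 3 groups did not overlap. The rise over control was 7.18-fold (95% interval 6.22 to 8.30, log2 2.84, standard error 0.10, edgeR adjusted p = 5.68e-13). It was higher at 4 h than at 2 h by 0.63 on the log2 scale (edgeR adjusted p = 0.000607). HMOX1, ZNF469, GCLM and ALAS1 passed under each of the 11 alternatives run.

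CYP1B1 (chr2:38066973-38109902), a heme-containing cytochrome P450 that the aryl hydrocarbon receptor induces, stood at 341 and 328 CPM in the controls, 698 and 794 CPM at 2 h and 576 and 484 CPM at 4 h. The 4 h libraries lay between the other groups without overlap. The gene was 1.59-fold higher than control at 4 h (log2 0.67, standard error 0.09, edgeR adjusted p = 0.00143) and lower than at 2 h by the direct test (-0.49, edgeR adjusted p = 0.00267). It overlaps RMDN2 and CYP1B1-AS1 on the other strand, and without a stated strand setting their reads cannot be told apart. It also overlaps RMDN2-AS1 on its own strand, which no strand setting would separate. RGS2 and ERRFI1 each overlap 1 annotated gene on the other strand, and ESM1 overlaps 1 on its own strand, with the same limits.

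CYP1B1 was the single gene past the threshold among 11 tested aryl hydrocarbon receptor genes, whose median log2 fold change was 0.14. TIPARP, a feedback inhibitor of the receptor, stood at 139 and 128 CPM in the controls and at 189 and 172 CPM at 4 h. Its groups did not overlap (log2 fold change 0.43, standard error 0.09, edgeR adjusted p = 0.0803), and it passed in DESeq2 and without either heme 4 h replicate. CYP1A1, the classical target, stood at 3.95 and 5.23 CPM in the controls and at 4.59 and 5.13 CPM at 4 h, so the groups overlapped (log2 fold change 0.08, edgeR adjusted p = 0.989).

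RUNX2 (chr6:45328157-45664349), the transcription factor of bone formation, lay on different sides of the control level at the 2 times. It stood at 48.1 and 48.0 CPM in the controls, 36.3 and 36.7 CPM at 2 h and 70.8 and 66.7 CPM at 4 h. The rise at 4 h was 1.43-fold (log2 0.52, standard error 0.09, edgeR adjusted p = 0.03), and 4 h exceeded 2 h by 0.91 on the log2 scale (edgeR adjusted p = 2.98e-05). RUNX2 did not pass in 5 of the 11 alternatives, among them those without control replicate 1 or replicate 2. It overlaps SUPT3H and RUNX2-AS1 on the other strand.

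ERRFI1 (chr1:8004404-8026308), an inhibitor of the EGF receptor, showed the reverse pattern. It stood at 152 and 144 CPM in the controls, 298 and 289 CPM at 2 h and 109 and 98.1 CPM at 4 h. The 4 h libraries were thus the lowest of the 6. ERRFI1 fell by 0.51 on the log2 scale against control (standard error 0.09, edgeR adjusted p = 0.0227), and 4 h was lower than 2 h by the direct test (-1.5, edgeR adjusted p = 1.66e-07). It failed in 5 of the 11 alternatives, among them those without either control, and was the single gene past the threshold among 12 tested ERBB receptors, ligands and brakes. LRIG3 also passed without heme 4 h replicate 1, and the ligand gene AREG without replicate 2. EGFR, the receptor, had a log2 fold change of 0.02.

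**Figure D3:**
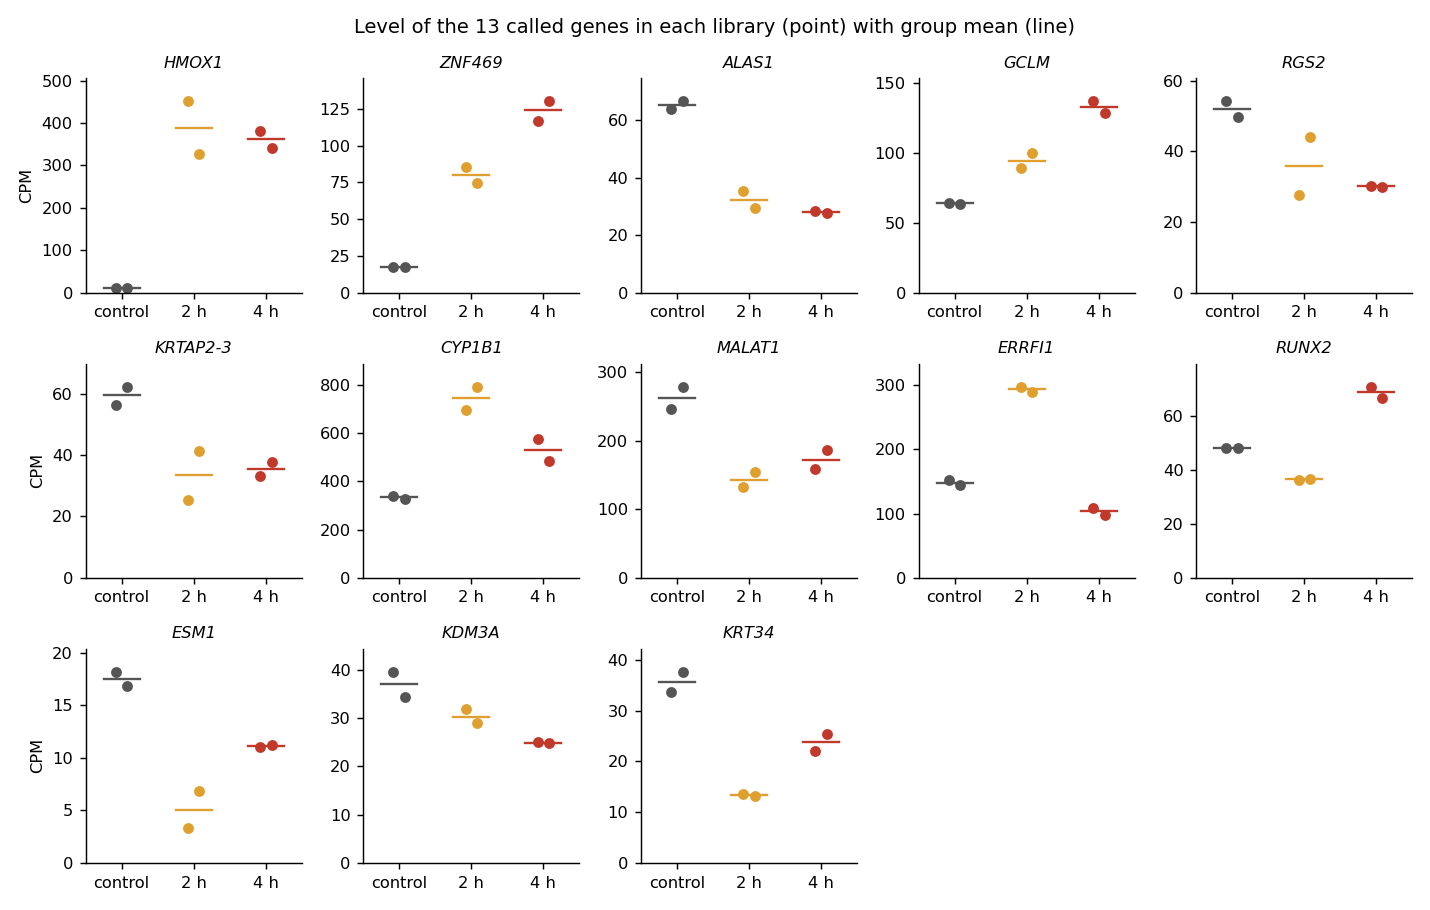
Each panel shows 1 of the 13 genes that passed the test, with CPM on an axis from 0 and, for each of control, heme 2 h and heme 4 h, 2 points and their mean (line). The 2 h values of ERRFI1 (298 and 289 CPM) lie above the controls and its 4 h values (109 and 98.1 CPM) below them, RUNX2 shows the opposite order, and HMOX1 and ALAS1 lie on the same side of the controls at both times.

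RGS2 (chr1:192809039-192812283), which shortens G-protein signals, stood at 54.2 and 49.8 CPM in the controls, 27.8 and 44.2 CPM at 2 h and 30.3 and 29.96 CPM at 4 h. The 2 h replicates were far apart while the 4 h replicates were close. The fall at 4 h was 1.72-fold (log2 -0.79, standard error 0.10, edgeR adjusted p = 0.000537), and it was not past the threshold in the fit over all 6 libraries (edgeR adjusted p = 0.403). KDM3A (chr2:86440647-86492716), a histone H3 demethylase and hypoxia target, stood at 39.6 and 34.4 CPM in the controls and at 25.04 and 24.8 CPM at 4 h. Its 2 h values of 31.8 and 28.9 CPM lay between those groups, and the fall at 4 h was 1.49-fold (log2 -0.57, edgeR adjusted p = 0.0417). KDM3A failed in 4 of the 11 alternatives, among them the fit without control replicate 1.

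KDM3A was the single gene past the threshold among 33 tested hypoxia and glycolysis genes, of which 26 had a log2 fold change below 0. An unadjusted p under 0.05 downward was found for 7, beside 436 of 15606 genes tested. The list's median was -0.07. Leaving out heme 4 h replicate 1 gave 5 members past the threshold (1 higher, 4 lower), and leaving out replicate 2 gave KDM3A and PDK1. VEGFA, the angiogenic factor of that pathway, stood at 462 and 501 CPM in the controls and at 504 and 520 CPM at 4 h (log2 fold change 0.09, edgeR adjusted p = 0.957).

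MALAT1 (chr11:65497688-65506516), a long nuclear noncoding RNA, stood at 246 and 279 CPM in the controls, 132 and 154 CPM at 2 h and 159 and 186 CPM at 4 h. All 4 heme libraries lay below the controls, and the fall at 4 h was 1.52-fold (log2 -0.61, standard error 0.09, edgeR adjusted p = 0.00832). MALAT1 did not pass without control replicate 2, in the fit over all 6 libraries or with glmTreat. It overlaps AP000769.2 on the other strand, and their reads cannot be told apart without the strand setting. NEAT1, another nuclear RNA, stood at 168 and 160 CPM in the controls and at 125 and 181 CPM at 4 h, which overlap (log2 fold change -0.10, edgeR adjusted p = 0.979). The share of reads outside annotated genes is given above for these libraries, and its part in the MALAT1 value was not tested.

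KRTAP2-3 and KRT34, a hair keratin-associated protein and a hair keratin, both fell and lie on chromosome 17, 318 kb apart. KRTAP2-3 (chr17:41059240-41060114) stood at 56.5 and 62.4 CPM in the controls, 25.3 and 41.4 CPM at 2 h and 33.1 and 37.8 CPM at 4 h. KRT34 (chr17:41377650-41382403) stood at 33.7 and 37.7 CPM in the controls, 13.6 and 13.2 CPM at 2 h and 22.1 and 25.5 CPM at 4 h. Neither gene's heme libraries overlapped its controls. At 4 h KRTAP2-3 was 1.68-fold lower (log2 -0.75, edgeR adjusted p = 0.00143) and KRT34 1.498-fold lower (log2 -0.58, edgeR adjusted p = 0.0475). KRTAP2-3 did not pass in the fit over all 6 libraries (edgeR adjusted p = 0.664). KRT34 was higher at 4 h than at 2 h by 0.83 on the log2 scale (edgeR adjusted p = 0.000295). KRT34 did not pass in 5 of the 11 alternatives, among them those without control replicate 2 and with other size factors. Of the 33 annotated genes between them 1 was tested, KRTAP4-9, which had a log2 fold change of -0.82 with a standard error of 0.45 (edgeR adjusted p = 0.871). Both belong to families of similar genes, so their counts are uncertain.

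ESM1 (chr5:54977864-55022671), a secreted proteoglycan, stood at 18.2 and 16.8 CPM in the controls, 3.28 and 6.88 CPM at 2 h and 11.02 and 11.2 CPM at 4 h. The 4 h values lay between the other groups. The fall against control was 1.57-fold (log2 -0.65, standard error 0.12, edgeR adjusted p = 0.0337), and 4 h exceeded 2 h by 1.13 on the log2 scale (edgeR adjusted p = 0.0027). ESM1 failed in 5 of the 11 alternatives, among them those without either control.

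MYC (chr8:127735434-127741434), the oncogene named by the series, stood at 529 and 510 CPM in the controls, 1250 and 1080 CPM at 2 h and 544 and 553 CPM at 4 h. The 4 h libraries lay just above the controls and well below both 2 h libraries. Against control the change at 4 h was 1.06-fold (95% interval 0.940 to 1.19, edgeR adjusted p = 0.964), so a change beyond 1.19-fold upward lies outside the interval. The direct test put 4 h below 2 h by a log2 difference of -1.08 (edgeR adjusted p = 2.28e-06).

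MYC targets of ribosome biogenesis and growth had a median log2 fold change of 0 over 58 tested genes at 4 h against control. None passed in edgeR or DESeq2, and 3 had an unadjusted p under 0.05. Against 2 h, 44 of the 58 were higher at 4 h and 0 lower, with a median of 0.43, beside 14.0% and 14.1% over all genes. LDHA, MYBBP1A and NOP58 passed against control without heme 4 h replicate 1 (1 higher, 2 lower). MYBBP1A, a nucleolar protein, stood at 254 and 248.6 CPM in the controls, 169 and 174 CPM at 2 h and 274 and 308 CPM at 4 h. The 4 h libraries were the highest, yet the log2 fold change of 0.21 against control had an edgeR adjusted p of 0.743. Among 11 tested genes with described G-quadruplex promoters and 25 G-quadruplex helicases and binding proteins, none passed in edgeR or DESeq2 and 0 had an unadjusted p under 0.05 at 4 h against control. The helicase gene PIF1 passed without heme 4 h replicate 2.

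HPX, the gene of hemopexin, was near the limit of detection, at 0.212 and 0.352 CPM in the controls (11 and 19 reads) and at 0.310 and 0.332 CPM at 4 h (16 and 18 reads). At 2 h it stood at 0.970 and 0.573 CPM. The groups compared overlapped, and the 95% interval of the change at 4 h ran from 0.544-fold to 2.36-fold (edgeR adjusted p = 0.989), so changes within those bounds are compatible with the data. The difference of 4 h from 2 h was -1.26 on the log2 scale, with an edgeR adjusted p of 0.0521. HP, the haemoglobin scavenger haptoglobin, had 5 and 16 reads in the controls and 5 and 15 at 4 h.

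CD163, the receptor for haptoglobin and haemoglobin, had 0 counts throughout, and at the lowest depth a level of up to 0.0565 CPM would be compatible with that. LRP1, the receptor that takes up hemopexin with its heme, stood at 49.6 and 46.5 CPM in the controls, 110 and 76.9 CPM at 2 h and 51.4 and 61.3 CPM at 4 h. The 4 h values lay above the controls but the log2 fold change of 0.23 had an edgeR adjusted p of 0.806, and 4 h was lower than 2 h (-0.73, edgeR adjusted p = 0.00197). Of the 8 tested scavenger genes none passed in edgeR and 1 in DESeq2. An unadjusted p under 0.05 upward was found for 4, beside 513 of 15606 genes tested. The count was 4 without heme 4 h replicate 1, LRP1 included, and 1 without replicate 2.

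**Figure D4:**
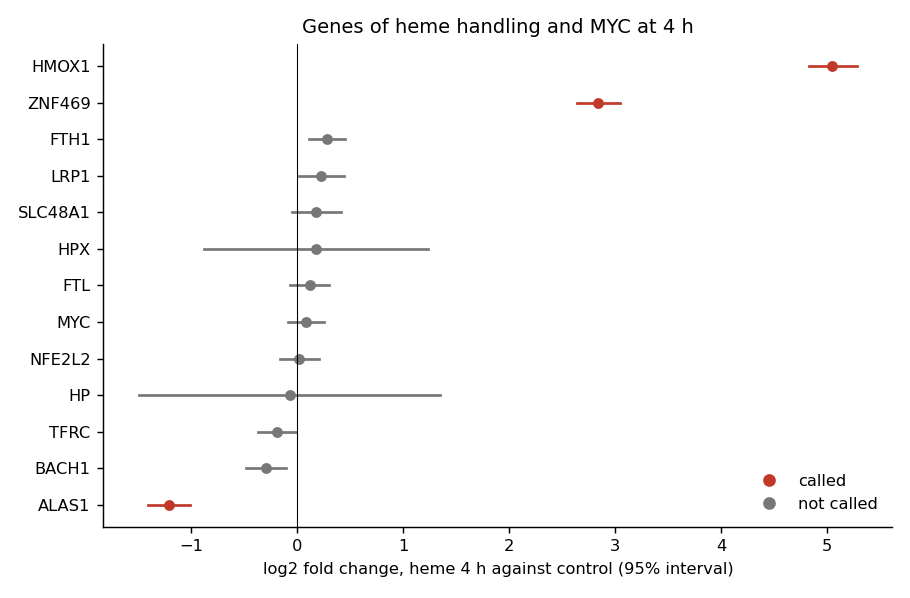
Points are log2 fold changes of heme 4 h against control for genes of heme handling and MYC, with 95% intervals from the fit of 4 libraries. HMOX1 (5.05), ZNF469 (2.84) and ALAS1 (-1.21) passed the test (red), the interval of MYC (1.06-fold) spans 0, and those of HPX and HP are the widest.

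The ATF4, immediate early and heat shock lists had no member past the threshold in edgeR at 4 h against control, although many of their genes differed between the time points (over all genes, 14.0% were higher and 14.1% lower at 4 h than at 2 h). Without heme 4 h replicate 1, 4 ATF4 targets passed (3 higher, 1 lower), TRIB3 among them, and 4 immediate early genes (1 higher, 3 lower). Without replicate 2, the ATF4 targets GDF15 and STC2 and the immediate early gene ID1 passed. Of 42 tested ATF4 targets, which answer amino acid and stress signals, 6 had an unadjusted p under 0.05 and 0 passed in DESeq2, while 26 were lower and 1 higher at 4 h than at 2 h. TRIB3, a pseudokinase of that pathway, stood at 77.6 and 80.5 CPM in the controls, 301 and 229 CPM at 2 h and 98.4 and 102 CPM at 4 h. It was thus far nearer to control at 4 h (log2 fold change 0.34, edgeR adjusted p = 0.285). Of 38 tested immediate early genes 4 had an unadjusted p under 0.05 and 1 passed in DESeq2 (ID1), while 26 were lower and 1 higher at 4 h than at 2 h, with a median of -0.61.

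Of 27 tested heat shock genes, 24 had a log2 fold change above 0 against control. An unadjusted p under 0.05 upward was found for 5, beside 513 of 15606 genes tested, and 1 passed in DESeq2. That gene, HSPA1A, an inducible HSP70 chaperone, stood at 105 and 120 CPM in the controls, 135 and 73.2 CPM at 2 h and 176 and 145 CPM at 4 h. Both 4 h libraries were above the controls, with a log2 fold change of 0.51 (standard error 0.10) and an edgeR adjusted p of 0.0724. Its near-identical copy HSPA1B had a log2 fold change of 0.28, and the split of reads between the 2 copies is uncertain. Of the 27 genes, 17 were higher and 1 lower at 4 h than at 2 h, beside 14.0% higher and 14.1% lower over all genes. Without heme 4 h replicate 2, 6 heat shock genes passed against control, and HSPA1A also passed without heme 4 h replicate 1 or control replicate 2.

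Sterol and lipid synthesis held 23 of 26 tested members above 0, with a median of 0.18. An unadjusted p under 0.05 upward was found for 9, beside 513 of 15606 genes tested. None passed in edgeR and 1 in DESeq2. INSIG1, a sterol sensor that holds back synthesis, stood at 56.1 and 51.9 CPM in the controls and at 70.3 and 63.2 CPM at 4 h. Its groups did not overlap (log2 fold change 0.31, edgeR adjusted p = 0.576). HMGCS1, an early enzyme of the path, had a log2 fold change of 0.28. Leaving out either heme 4 h replicate gave 5 members past the threshold, INSIG1 and HMGCS1 among them without replicate 2 and not without replicate 1.

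Metallothioneins and zinc transport had the lowest median of the lists with at least 5 tested genes, -0.29 over 6. An unadjusted p under 0.05 downward was found for 4, beside 436 of 15606 genes tested. None passed the threshold in edgeR or DESeq2. SLC30A1, the zinc exporter, stood at 240 and 224 CPM in the controls, 116 and 161 CPM at 2 h and 197 and 175 CPM at 4 h. The metal-binding proteins MT1F, MT1X and MT2A had log2 fold changes of -0.38, -0.36 and -0.26. SLC30A1 passed without heme 4 h replicate 1, and MT1F and MT1X without replicate 2. Each of these 4 genes was lower in both 4 h libraries than in both controls, as were 2734 of 15606 genes tested. They are the 4 with an unadjusted p under 0.05, so the lack of overlap adds little.

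BMP and TGF-beta feedback genes had a median of -0.17 over 15 tested. An unadjusted p under 0.05 downward was found for 5, beside 436 of 15606 genes tested. None passed in edgeR and 4 in DESeq2, beside 0.186% of genes tested in DESeq2. TGFBI, a matrix protein that TGF-beta induces, stood at 73.5 and 73.4 CPM in the controls and at 53.8 and 52.6 CPM at 4 h, and its edgeR adjusted p of 0.0584 was the closest to the threshold of the genes beyond it (log2 fold change -0.47). The inhibitors of differentiation ID1 and ID3 had log2 fold changes of -0.47 and -0.46, and PMEPA1, a brake on TGF-beta signals, -0.36. TGFBI, ID1, ID3 and PMEPA1 fell in the fits without heme 4 h replicate 1 and without replicate 2. Of 25 tested NF-kB targets 6 had an unadjusted p under 0.05 downward, none passed in edgeR and 2 in DESeq2, beside those same shares. NFKBIZ, a nuclear NF-kB cofactor, stood at 89.1 and 88.7 CPM in the controls and at 63.2 and 67.8 CPM at 4 h (log2 fold change -0.44, edgeR adjusted p = 0.0803), and it passed without either heme 4 h replicate. The NF-kB count was 4 without heme 4 h replicate 1 and 2 without replicate 2, all lower.

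Lists of growth and energy metabolism lay slightly below 0 without a member past the threshold in edgeR or DESeq2. The 13 mitochondrially encoded messenger RNAs were all below control (median -0.15, 3 at an unadjusted p under 0.05). MT-ND3, a subunit of respiratory complex I, stood at 379 and 386 CPM in the controls and at 333 and 305 CPM at 4 h (log2 fold change -0.26, edgeR adjusted p = 0.633). Of 67 nuclear genes of oxidative phosphorylation 61 were below 0 (median -0.10, 6 at an unadjusted p under 0.05), of 33 proteasome subunits 30 (median -0.07, 0), and of 32 mitosis and kinetochore genes 29 (median -0.12, 5). CENPE, a kinetochore motor, stood at 50.4 and 42.2 CPM in the controls and at 37.5 and 32.4 CPM at 4 h (log2 fold change -0.41, edgeR adjusted p = 0.373). Without heme 4 h replicate 1, 9 nuclear genes of oxidative phosphorylation passed (8 lower, 1 higher), as did 5 mitochondrially encoded messenger RNAs, MT-ND3 among them, 2 proteasome and 2 mitosis genes, CENPE among them, all lower. Without replicate 2 none of these 4 lists had a member past the threshold. All members share the same 4 libraries, so their common sign is not independent evidence.

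**Figure D5:**
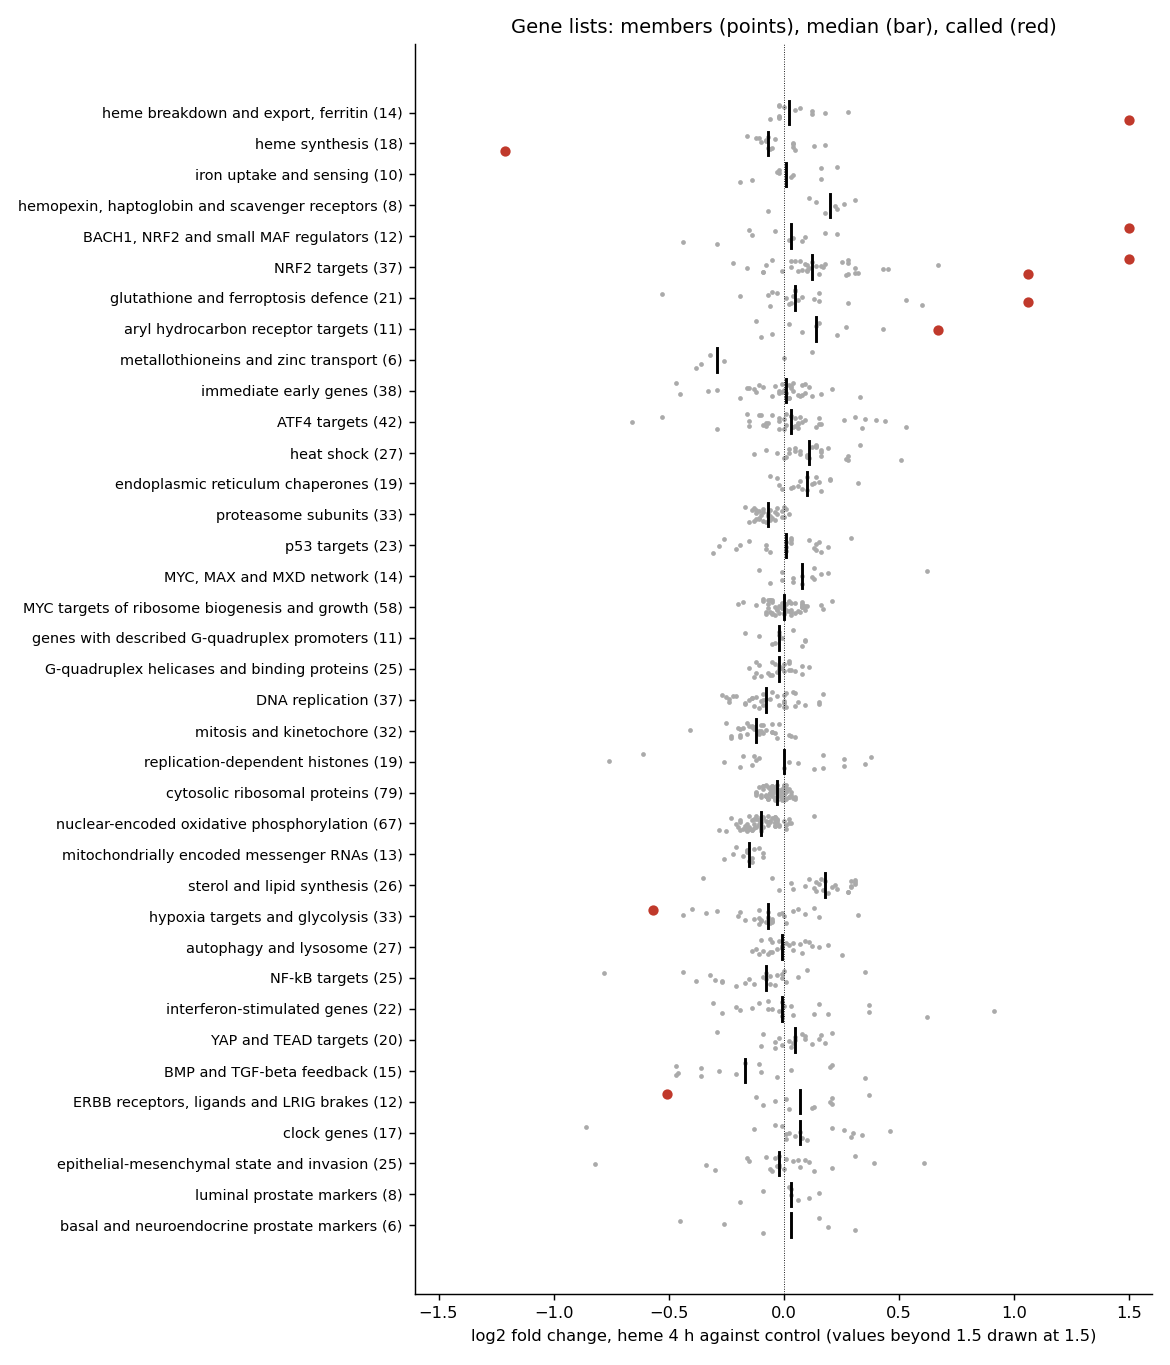
Each row is 1 of the 37 gene lists with at least 5 tested genes, with the log2 fold changes of its tested members at heme 4 h against control (points, red where past the threshold, values beyond 1.5 such as HMOX1 drawn at 1.5) and their median (bar). Medians ran from -0.29 (metallothioneins and zinc transport) to 0.20 (hemopexin, haptoglobin and scavenger receptors), beside 0 over all genes tested. A gene past the threshold was held by 8 of 41 lists, but HMOX1 and GCLM each belong to more than 1 of them.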

How the data were processed

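RNA of PC3 cells was sequenced in 6 libraries, of which the 2 control and 2 heme 4 h libraries were compared. The authors deposited 1 table of raw read counts by gene symbol for each library, in the layout of HTSeq. Per the submitters' processing notes, the authors used Trimmomatic, STAR, SAMtools, deepTools and hg38. The sources used here give no tool versions, annotation release or strand setting. The tables held 33514 symbols, and the 5 summary lines stayed out of all totals (in the controls and heme 4 h libraries 4.35% to 4.48% ambiguous reads and 5.48% to 6.40% outside genes). Coordinates are from GENCODE on GRCh38, where 33164 symbols matched 1 gene.

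edgeR 4.0.16 (R 4.3.3) was used with TMM, filterByExpr (minimum count 10) and the two-sided quasi-likelihood test over all genes left, with 2 residual degrees of freedom for 4 h against control. The contrast of 4 h with 2 h came from 1 fit of all 6 libraries (3 residual degrees of freedom). Per-library CPM use 1 TMM scaling of the 6 libraries. Both comparisons use the same heme 4 h libraries. Scripts were tested on simulated data. DESeq2 1.42.0, other size factors (RLE), no filter, the replicate number as a block, all 6 libraries, glmTreat beyond 1.2-fold, an adjusted p under 0.01 and leaving out each library were the alternatives. Genes were named by rule: up to 15 genes per direction that passed, had 2 CPM or more on average and showed no overlap of groups, the genes of the study's theme, and in each list its members past the threshold, or the one with the smallest p. Genes beyond that rule (such as NEAT1, CYP1A1, KRT8, INSIG1 or TRIM16) were chosen after their values were seen, and some genes that the rule names are not reported here. The comparison, gene lists and motifs were chosen with earlier results of these data known. Sampling noise did not account for the differences between replicates (chi-square of 9.11 per gene for control and 22.8 for heme 4 h), so none was taken for a repeat deposit of another, which does not show that they are separate cultures. The limit for a count of 0 is 3 counts and covers counting error only.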

Additional observations from a re-analysis of the deposited data

Results flagged for a closer look

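For 23 of the genes named by rule and reported here, the effect of heme differed between the 2 time points by the direct edgeR test of 4 h against 2 h (adjusted p under 0.05), which 28.1% of genes tested passed. The values below are log2 differences of 4 h from 2 h. Among genes of heme, iron and MYC, MYC was at -1.08, LRP1 at -0.73, SLC48A1 at -0.44 and BACH1 at -0.42. Among those that also differed from control at 4 h, ZNF469 was at 0.63, GCLM at 0.49, CYP1B1 at -0.49, RUNX2 at 0.91, ERRFI1 at -1.5, ESM1 at 1.13 and KRT34 at 0.83. Stress genes were TRIB3 at -1.40, HSPA1A at 0.63, SDF2L1 at 0.84, POMP at 0.51, CDKN1A at -0.79 and SQSTM1 at -0.31. The others were SLC30A1 at 0.42, MLX at 0.58, MYBBP1A at 0.76, HIST2H2BE at -0.53, NFKBIZ at -0.37 and CD14 at -1.38. CD14, a monocyte marker, stood at 2.56 and 1.86 CPM at 2 h, 0.678 and 1.01 CPM at 4 h and 0.405 and 0.797 CPM in the controls.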

How the results depend on the processing

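The number of genes that differed between 4 h and control was 13 (5 higher, 8 lower). It was 29 with DESeq2 (10 higher, 19 lower), 22 without a filter on low counts (8 and 14), 8 at an adjusted p under 0.01 (4 and 4), 6 with glmTreat beyond 1.2-fold (3 and 3) and 5 with all 6 libraries in 1 fit (4 and 1, the latter being ALAS1). With RLE size factors it was 12. Leaving out 1 library gave 9 to 490 genes (5 to 300 higher, 4 to 190 lower), the lowest without control replicate 2 and the highest without heme 4 h replicate 1. The cause of these shifts was not tested. With the replicate number as a block (replicate block) the count was 162 (85 higher, 77 lower), 1.04% of genes tested, and included the 13. That fit held 10 NRF2 targets and 7 sterol and lipid synthesis genes, all higher, and 5 NF-kB targets, all lower. It also held 4 ATF4 targets and 4 heat shock genes, all higher. Metallothioneins and zinc transport, hypoxia and glycolysis, and BMP and TGF-beta feedback each had 4, all lower. Same-numbered libraries deviated together with a correlation of 0.29 over 11809 genes, but with 2 pairs and no label that ties a number to a culture, the numbers are not shown to pair the samples. For 4 h against 2 h, 4558 genes differed and 4205 did so with the block (2056 higher, 2149 lower). Leaving out 1 library gave 2199 to 5819 (1166 to 3196 higher, 1033 to 2623 lower), the lowest without heme 4 h replicate 1.

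No value past the threshold changed sign under the alternatives run, and of the gene values recomputed against control, 499 stayed on their side of the threshold, 47 crossed to pass it and 30 no longer passed. For 7 further values DESeq2 gave no adjusted p. Of the list counts 94 of 880 moved by over 1.5 times and of the list medians 36 of 440 moved by more than the replicates' spread. With 2 libraries per group, changes under about 0.51 on the log2 scale did not pass, and genes with few reads (HPX, HP, CD163) cannot be called unchanged.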

Other observations

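DESeq2 passed 16 genes against control that edgeR did not (5 higher, 11 lower), with edgeR adjusted p-values of 0.0584 or more. They were seen after the fits and not chosen by rule. IGF1R, the receptor of insulin-like growth factor 1, stood at 46.6 and 45.4 CPM in the controls and at 31.0 and 35.2 CPM at 4 h (log2 fold change -0.48). The transcription factor ETS1 stood at 276 and 273 CPM in the controls and at 216 and 219 CPM at 4 h (log2 fold change -0.34), and PRDM1, a repressor, at 17.4 and 17.5 CPM and at 11.9 and 12.4 CPM (log2 fold change -0.52). ARID5B, a chromatin protein, stood at 31.6 and 30.3 CPM in the controls, 66.2 and 64.8 CPM at 2 h and 21.4 and 23.6 CPM at 4 h. Its 2 h libraries lay above the controls and its 4 h libraries below, as for ERRFI1, and PHLDB2, a protein of cell adhesion sites, did likewise at 283 and 245, 471 and 501, and 206 and 187 CPM. DAGLA, which makes the endocannabinoid 2-AG, went the other way, at 26.3 and 27.2 CPM in the controls, 17.1 and 18.2 CPM at 2 h and 34.1 and 42.7 CPM at 4 h (log2 fold change 0.52 at 4 h).

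LRIG3, of the LRIG family of receptor regulators, stood at 12.6 and 12.5 CPM in the controls, 2.40 and 2.99 CPM at 2 h and 15.1 and 17.3 CPM at 4 h. It was higher at 4 h than at 2 h by 2.59 on the log2 scale (edgeR adjusted p = 1.66e-07), while its log2 fold change of 0.37 against control at 4 h had an edgeR adjusted p of 0.636.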
